A study of Mus musculus with 24 samples.

Results

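SIM-A9 cells, a spontaneously immortalised mouse microglial line, were compared after 2 h with single-walled carbon nanotubes (SWCNT) labelled (GT)6 and after 2 h without any probe. The comparison used 6 of the series' 24 libraries, the 3 labelled (GT)6 SWCNT and the 3 labelled control. Every gene whose counts passed a filter on low values was included. The other 18 libraries came from cells given carboxylated nanotubes (COOH SWCNT), bacterial lipopolysaccharide (LPS, the positive control for inflammation), AAV (an adeno-associated virus), Fura-2, which reports calcium, or 1 of the dyes Di-2-ANEPEQ and DiBASC2. These libraries entered the fit to estimate the spread, and the COOH SWCNT and LPS groups also served for direct contrasts.

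The labels give 1 protocol for the series. Cells in 48-well plates were moved to 270 uL of medium without serum 2 h before the start, and a volume of 30 uL holding the probe at 10 times its final strength was then added. RNA was taken from the adherent cells 2 h later and enriched for poly-A. The labels used here give no nanotube concentration, do not say whether control wells received 30 uL of a blank, and do not say whether replicates came from separate cultures. The p-values therefore measure only the spread between these libraries, which may be technical. All libraries came from 1 cell line.

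(GT)6 is the usual name of a short single-stranded DNA of repeated guanine and thymine that wraps a nanotube and keeps it suspended in water. Nanotubes coated in this way fluoresce in the near infrared and are used as optical sensors of catecholamines such as dopamine. Microglia are the resident macrophages of the brain, and they meet any probe placed in nervous tissue. In macrophages, pattern recognition receptors signal through NF-kB and MAP kinases within minutes. The first genes to respond are immediate early transcription factors, then cytokines and chemokines, together with the inhibitors that end the response, such as IkB proteins, dual-specificity phosphatases and RNA-binding proteins that destroy cytokine messages.

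Total counts ranged from 18176305 to 23155577 in the control libraries and from 17364272 to 24895659 in the (GT)6 SWCNT libraries. The biological coefficient of variation over all 24 libraries was 4.12%. Of 25 microglia and macrophage markers, 22 had enough counts to be tested, and their summed level was 3981 to 4090 CPM (counts scaled to a common library total by TMM) in control and 4095 to 4267 CPM in (GT)6 SWCNT. Sall1, Gpr34 and Siglech, 3 markers of microglia in the brain, did not exceed 9 counts in any library of the series. Markers of other cells were at or near 0: neither T and B lymphocyte markers (0 of 8 tested) nor neuron markers (2 of 8 tested, summed level at most 1.33 CPM) were present at a level above traces. The exceptions were Aldoc, the 1 tested astrocyte marker of 8, at 98.2 to 111 CPM over the 6 libraries, Kdr, the 1 tested of 10 fibroblast and endothelial markers, at 102 to 137 CPM, and 3 of 8 oligodendrocyte markers with a summed level of 33 to 37.1 CPM. Gfap, Pecam1, Col1a1 and Sox10 stayed under 10 counts in every library. Kdr was lower with (GT)6 SWCNT, at a log2 fold change of −0.33 ± 0.05 (SE), and 0 of the 6 tested astrocyte, neuron and oligodendrocyte markers were called in edgeR's fit with TMM scaling or by DESeq2 (Aldoc was called lower with upper-quartile factors), with 2 (Aldoc and 1 oligodendrocyte marker) lower at an unadjusted p under 0.05. The part of these markers in the results was not tested.

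After 2 h with (GT)6 SWCNT, most listed immediate early, NF-kB, actin and plasminogen system genes were higher, as were 12 of 22 tested cytokines and 8 of 16 chemokines. Lower genes changed by less, and the lists with more members lower than higher included interferon response, lipid efflux and cell cycle genes. All lists were chosen with earlier results of these data known, so their shares are a description. Of 13116 genes tested, 2680 (20.4%) were called, meaning a Benjamini-Hochberg adjusted p under 0.05 in edgeR's quasi-likelihood test. Higher levels were called for 1298 genes, 9.9% of those tested, and lower levels for 1382, 10.5%. Library values of the 2 groups did not overlap for 1243 of the higher and 1315 of the lower genes. The calls rest on the same values, and separation was not counted over all genes tested, so these counts add no support. The upward changes were the larger ones. At least a doubling was seen for 165 of the higher genes, and at least a halving for 34 of the lower ones. The median log2 fold change was 0.313 among higher genes, −0.279 among lower genes and −0.0171 over all genes tested. For 9 of the 165 genes the control libraries held at most 3 counts each, so that their fitted fold change depends on the model. Leaving out 1 library took the count of higher genes to between 1097 and 1395. The count of lower genes fell further, to 917 without control replicate 2, 849 without control replicate 3 and 883 without (GT)6 replicate 1.

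**Figure D1:**
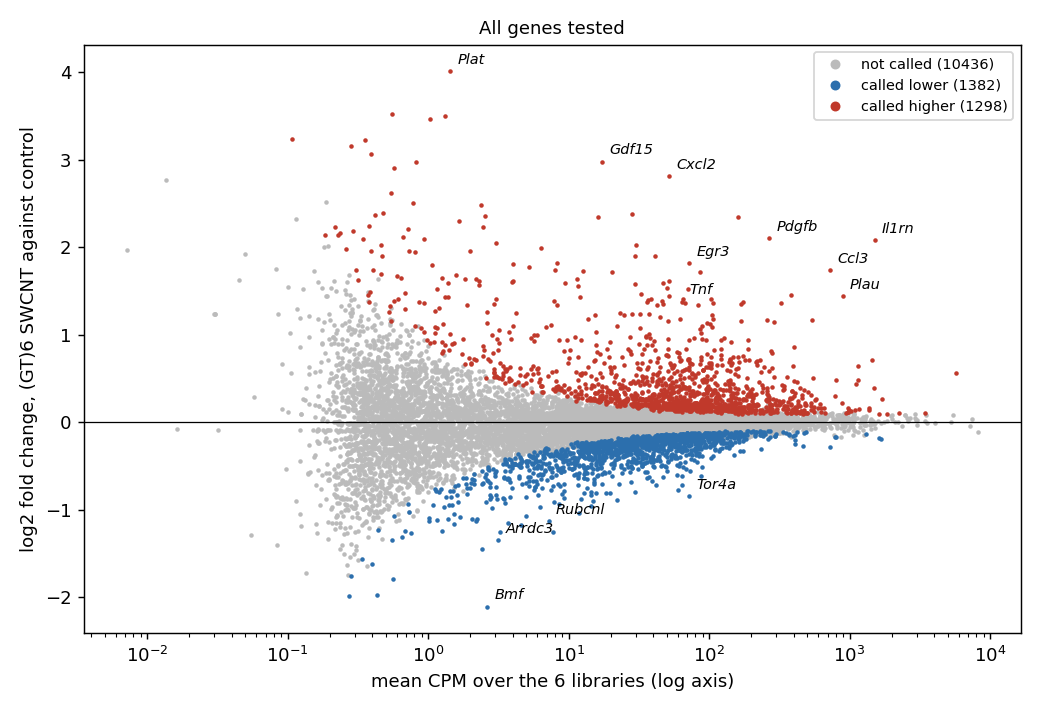
Each point is 1 of the 13116 genes tested, placed by its mean level over the 6 libraries (CPM, log axis) and its log2 fold change in (GT)6 SWCNT against control. Red points are the 1298 genes called higher and blue points the 1382 called lower; the red points reach further from 0, and Plat at 4.01 and Bmf at −2.11 lie at the edges among the labelled genes. Fold changes at the far left rest on few counts.

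Among protein-coding genes with a mean of at least 5 CPM, no exon shared with another gene and fully separated control and (GT)6 libraries, the 12 highest fold changes belonged to Gdf15, Cxcl2, Ccl7, Ccl4, Pdgfb, Il1rn, Apold1, Egr3, Myc, Ccl3, Ptgs2 and Btg2. They encode 4 chemokines (Cxcl2, Ccl7, Ccl4 and Ccl3), a receptor antagonist of interleukin 1 (Il1rn), secreted factors (Gdf15 and Pdgfb), a prostaglandin-forming enzyme (Ptgs2) and regulators of transcription and growth (Egr3, Myc and Btg2). The 12 lowest belonged to Rubcnl, Inka1, Sesn1, Zfp467, Zfp971, Ppargc1b, Fam53b, S1pr1, Lpar5, Tor4a, Klhl42 and Themis2. Rubcnl encodes a protein that promotes autophagosome maturation, Sesn1 a stress-induced inhibitor of mTORC1 signalling, Ppargc1b a coactivator of mitochondrial genes, and S1pr1 and Lpar5 receptors for lysophospholipids. Their fold changes lay between 3.05 and 7.88 for the higher genes and between 0.457 and 0.571 for the lower ones. All 24 kept their direction and their call under each of the 13 alternative settings and left-out libraries. The rule chose them from these same libraries as extreme, called and separated genes, so keeping the call adds little support.

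**Figure D2:**
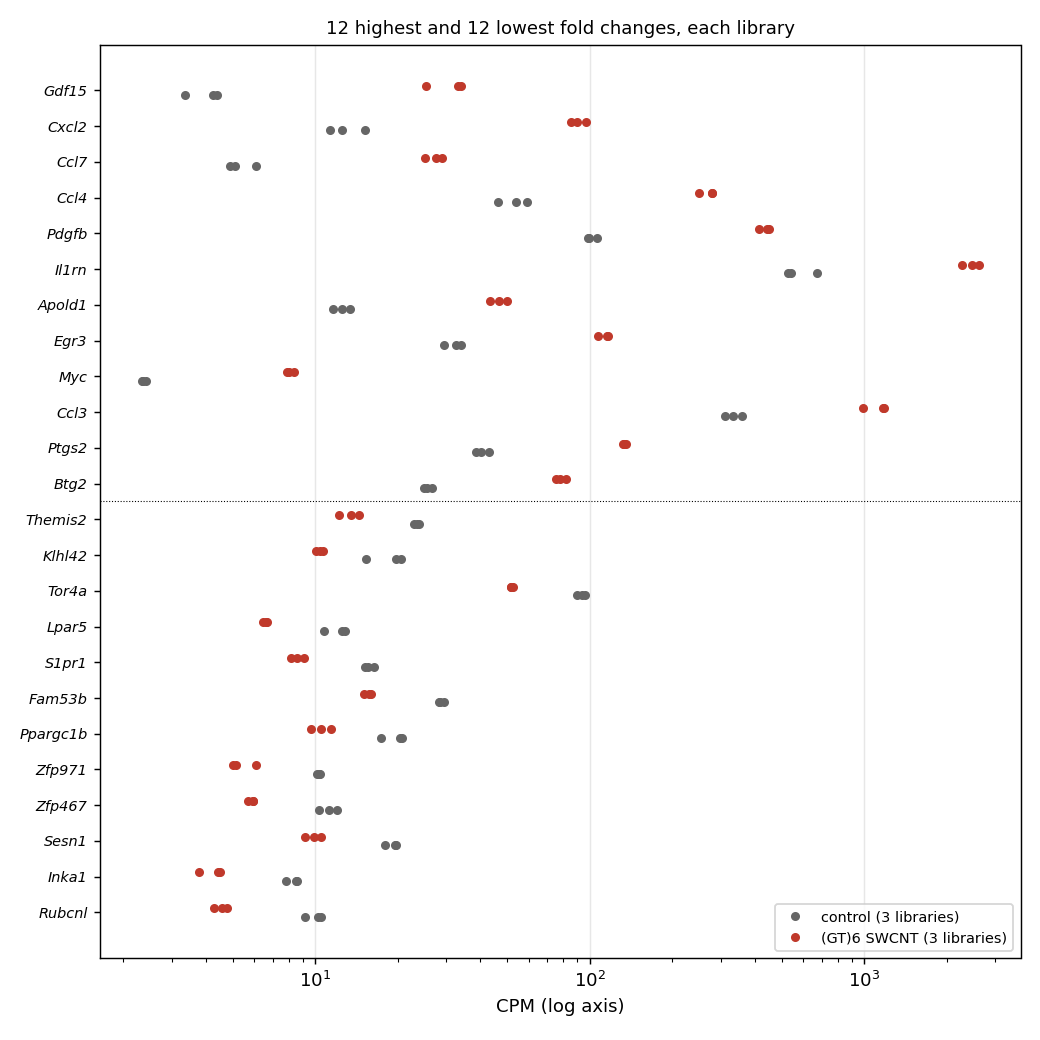
The level of the 12 genes with the highest and the 12 with the lowest fold change is drawn for each library (CPM, log axis), control in grey and (GT)6 SWCNT in red. The 2 groups of 3 points are apart for every gene because the rule that chose the genes required it. The higher genes span levels from 2.34 CPM (Myc in a control library) to 2611 CPM (Il1rn with (GT)6). Most of the lower genes stay under 30 CPM (Tor4a is the exception).

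Chemokine and interleukin 1 family genes were among those with the largest rises. Cxcl2 (ENSMUSG00000058427.10, chr5:90903871-90905938, plus strand), a neutrophil attractant, stood at 15.2, 11.3 and 12.5 CPM in the control libraries and at 85.6, 89.9 and 96.6 CPM with (GT)6 SWCNT. Every nanotube library was at least 5 times above every control library, and the log2 fold change was 2.81 ± 0.08 (SE, adjusted p = 1.26e-24). Il1rn (ENSMUSG00000026981.15, chr2:24336853-24351494, plus strand), which blocks the interleukin 1 receptor, went from 672, 539 and 529 CPM to 2611, 2476 and 2263 CPM. It was the most abundant of the 12, and its fold change of 4.23 had an adjusted p of 5.25e-22. Nfkbia, the NF-kB inhibitor IkB-alpha, and Btg2, an antiproliferative immediate early gene, rose less and are described with their groups.

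The 250 bases before the RefSeq start of these 4 genes are shown because they hold exact matches to motifs of inflammatory or early-response transcription factors, in capitals. The letters searched, on both strands, were GGG, any 2 bases and TTTCC for NF-kB, TGANTCA for AP-1 and TGACGTCA for the cyclic AMP response element (CRE). The serum response factor CArG box was also searched, and no matches in the sequences shown overlap each other. The windows (GRCm38.p6) are chr5:90903649-90903898 on the plus strand, chr12:55492648-55492897 on the minus strand, chr2:24336610-24336859 on the plus strand and chr1:134079156-134079405 on the minus strand, each read 5′ to 3′ towards the gene.
Cxcl2: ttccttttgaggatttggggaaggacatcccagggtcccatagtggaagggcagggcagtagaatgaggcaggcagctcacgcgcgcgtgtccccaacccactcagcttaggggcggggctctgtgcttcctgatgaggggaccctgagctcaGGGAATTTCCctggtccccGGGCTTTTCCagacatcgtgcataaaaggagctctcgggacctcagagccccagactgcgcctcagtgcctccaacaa
Nfkbia: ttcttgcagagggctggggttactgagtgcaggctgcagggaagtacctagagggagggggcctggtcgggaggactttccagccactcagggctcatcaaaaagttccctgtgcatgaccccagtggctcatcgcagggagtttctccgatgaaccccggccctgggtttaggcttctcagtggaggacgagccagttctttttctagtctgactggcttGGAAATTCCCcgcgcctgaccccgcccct
Il1rn: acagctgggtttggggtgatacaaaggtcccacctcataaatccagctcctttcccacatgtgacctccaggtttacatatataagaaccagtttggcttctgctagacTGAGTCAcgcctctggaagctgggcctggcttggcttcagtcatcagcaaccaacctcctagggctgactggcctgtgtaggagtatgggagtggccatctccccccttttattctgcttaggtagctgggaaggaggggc
Btg2: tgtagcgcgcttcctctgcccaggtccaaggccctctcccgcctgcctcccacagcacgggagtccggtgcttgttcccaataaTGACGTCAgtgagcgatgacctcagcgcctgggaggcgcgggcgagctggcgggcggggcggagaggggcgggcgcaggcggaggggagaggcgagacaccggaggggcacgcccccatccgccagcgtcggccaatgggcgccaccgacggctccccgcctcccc
Cxcl2 had a pair of NF-kB matches, whose first bases lay at −97 and −78 from the start. Nfkbia had 1 NF-kB match at −29, Il1rn 1 AP-1 match at −141, and Btg2 1 CRE match at −166. In windows that also take in 50 bases after the start, 1.63% of 32851 RefSeq promoters had an NF-kB match, 7.81% an AP-1 match, 1.79% a CRE match and 1.63% a CArG box. Of the 12 highest genes 7 had an entry, with 1 NF-kB, 1 AP-1 and 1 CRE match and 0 CArG boxes among them. Of the 12 lowest 9 had an entry, and 1 AP-1 match was the only match there. Among other inflammatory genes searched, Tnf and Il1b had 0 matches to any of the motifs. Il6 had 1 NF-kB and 1 AP-1 match. A match describes letters and not binding. Each window was set by the RefSeq start nearest the gene's annotated 5′ end. Which starts were used in these cells was not tested.

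Of 24 cytokines 22 were tested, and 12 (54.5%) were higher and 2 (9.09%) lower, against 9.9% and 10.5% of all genes. The median log2 fold change was 1.295. Both groups held at most 3 counts in each library for 5 of the 22, Il12b and Il10 among them. With these 5 left out, and a gene at that floor in 1 group only set at its bound, the median was 1.17. Tnf, the archetypal macrophage cytokine, had 37, 35.1 and 34.6 CPM in control and 92.3, 92.7 and 91.8 CPM with (GT)6 SWCNT. The replicates were tight and the groups far apart, with a fold change of 2.6. Il1b rose from 9.18, 9.96 and 8.22 CPM to 50.9, 48 and 43.5 CPM, although reads cannot be assigned to it with certainty because it overlaps Il1bos. Il6, which macrophages make in large amounts after LPS, remained scarce: it had 4, 4 and 4 counts in the control libraries and 21, 17 and 11 with (GT)6 SWCNT. The 3 nanotube libraries were all above the controls, and the log2 fold change of 1.90 ± 0.39 was called (adjusted p = 0.000347). In the other direction, Il15, a survival factor for lymphocytes, fell from 5.33, 4.17 and 3.74 CPM to 2.38, 2.28 and 2.64 CPM. Tnfsf14 was the other cytokine called lower, at −1.32 on the log2 scale, and it lost its call without control replicate 1 or without (GT)6 replicate 2, leaving 1 lower cytokine.

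Of 22 chemokines 16 were tested and 8 (50%) were higher, against 9.9% of all genes, with a median log2 fold change of 0.842. Ccl4 rose from 59, 53.9 and 46.2 CPM to 279.6, 278 and 249.7 CPM and Ccl3 from 358, 332 and 310.2 CPM to 1182, 1168 and 988 CPM. These neighbours on chromosome 11 attract monocytes and lymphocytes. Ccl7 rose from 4.89, 5.11 and 6.09 CPM to 27.6, 28.9 and 25.2 CPM, which was a fold change of 5.1. Ccl2, the main monocyte attractant and named here after its values were seen, had 219, 198 and 194 CPM in control and 558, 558 and 557 CPM with (GT)6 SWCNT. All of these libraries separated by group, which the rule for the 12 highest required of Ccl4, Ccl3 and Ccl7. Ccl6 was the 1 chemokine called lower, by 0.22 on the log2 scale; that call was lost in 4 of the 6 fits that left out a library (control replicates 1 and 2, (GT)6 replicates 1 and 2). Cxcl1 had no counts in the 6 libraries and at most 13 in the series.

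Of the prostaglandin genes, 2 of 13 tested (15.4%) were higher, against 9.9% of all genes. By edgeR or DESeq2 0 were lower, with 3 lower at an unadjusted p under 0.05. Ptgs2, the inducible cyclooxygenase, rose from 43, 40.2 and 38.4 CPM to 133, 135 and 132 CPM. The spread within each group was small beside that difference, and its adjusted p was 5.41e-24. 1 gene was called lower when (GT)6 replicate 3 was left out.

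Genes of the NF-kB pathway rose in their majority, by small amounts. All 25 listed were tested, and 19 (76%) were higher and 1 (4%) lower, against 9.9% and 10.5% of all genes. The median log2 fold change was 0.316. Traf1, a signalling adaptor and a target of NF-kB, rose from 23.2, 23.3 and 24.5 CPM to 76.5, 70.1 and 66.8 CPM and was the 1 member past a doubling. The subunit gene Rel rose from 59.3, 67.7 and 67.8 CPM to 106, 109 and 112 CPM. Next came the feedback genes. Tnfaip3, the ubiquitin-editing inhibitor A20, rose from 23.7, 23.6 and 23.3 CPM to 37.3, 37.8 and 37.7 CPM. Nfkbia rose from 110, 115 and 113 CPM to 175, 172 and 161 CPM, a fold change of 1.5 with no overlap between groups (adjusted p = 2.46e-12). Birc2 and Ikbkg were not called, at −0.20 and −0.07. Cyld, a deubiquitinase that limits the pathway, was the 1 member called lower, at −0.20, a call lost without control replicate 1, control replicate 2 or (GT)6 replicate 2.

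**Figure D3:**
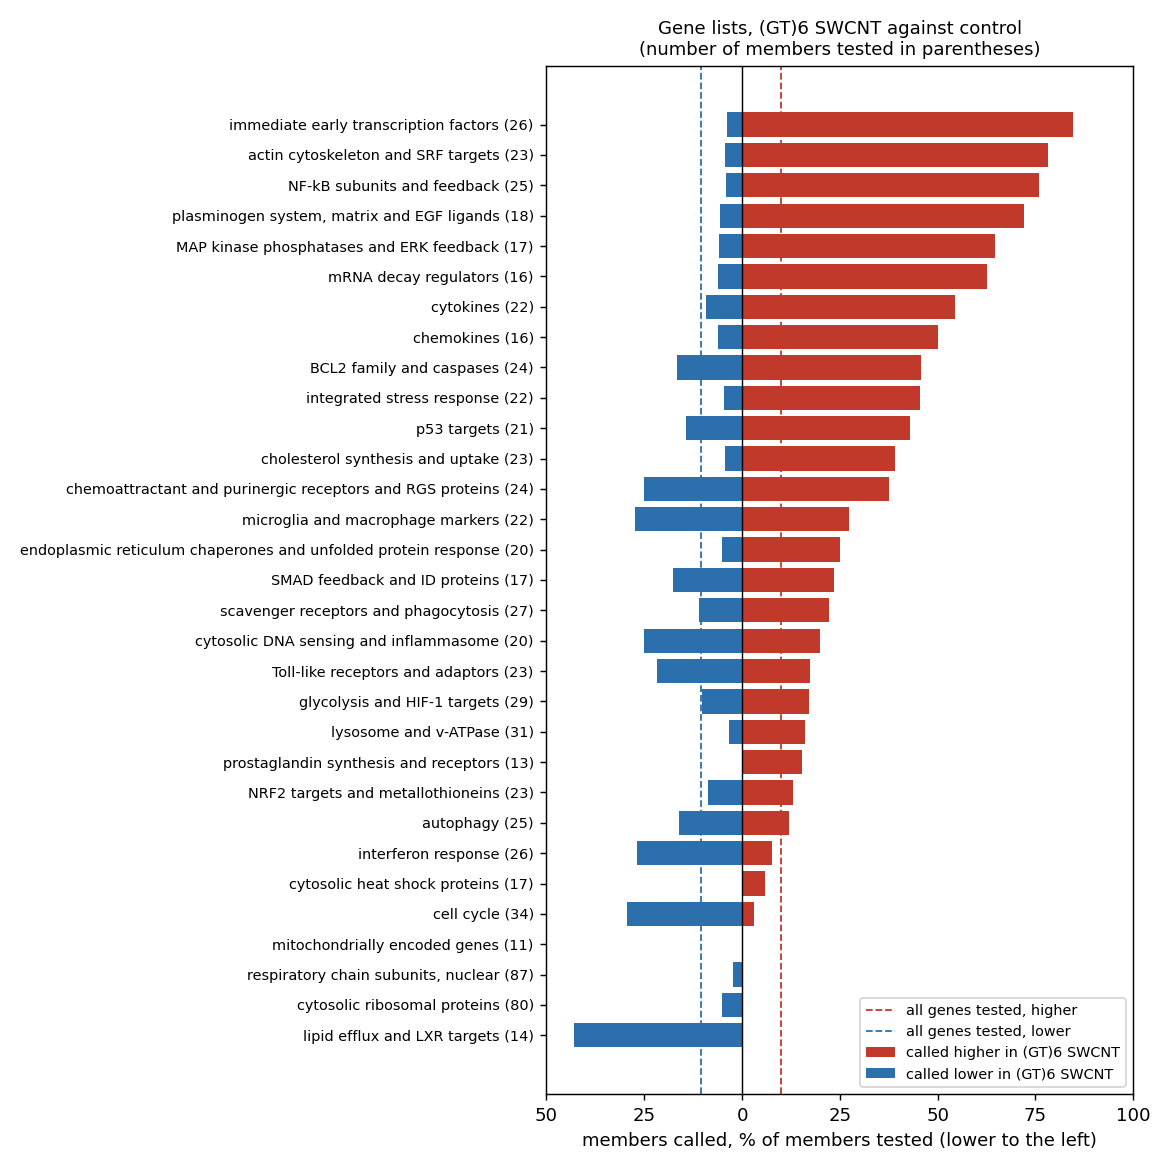
Bars give the share of the tested members of each gene list that were called higher (red, to the right) or lower (blue, to the left) in (GT)6 SWCNT, in percent; dashed lines mark the shares over all genes tested, 9.9% higher and 10.5% lower. Immediate early, actin, NF-kB and plasminogen system lists have over 70% of members higher. The lipid efflux, cell cycle and interferon lists have more members lower than higher. The lists were chosen with earlier results of these data known.

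Immediate early transcription factors, whose messages appear without new protein synthesis, had the highest share of higher members of any list. Of 28 listed 26 were tested and 22 (84.6%) were higher, against 9.9% of all genes. The median log2 fold change was 0.759. Egr3, a zinc finger factor of the early growth response family, rose from 29.3, 34 and 32.7 CPM to 107, 117 and 116 CPM. Myc rose from 2.42, 2.34 and 2.35 CPM to 8.05, 8.38 and 7.91 CPM, and Nr4a3, an orphan nuclear receptor, from 1.37, 0.894 and 1.17 CPM to 3.78, 3.44 and 3.11 CPM. Each nanotube library was above each control library for these 3 genes, which the rule for the 12 highest required of Egr3 and Myc. Btg2, whose promoter is printed above, rose from 24.9, 25.4 and 26.6 CPM to 75.1, 78.2 and 81.7 CPM (adjusted p = 8.12e-23). Atf3, a repressor induced by many stresses and named here after its values were seen, rose from 97.6, 101 and 95.3 CPM to 254, 259 and 247 CPM. Fos, the best known member, was not among them: it had 13.5, 14 and 10.8 CPM in control and 10.3, 11.6 and 12 CPM with (GT)6 SWCNT. Those values overlapped, and the log2 fold change of −0.18 ± 0.10 was not called. Nr4a2 was called lower at −0.40, and the call was lost without control replicate 2, control replicate 3 or (GT)6 replicate 1. Egr1 did not exceed 3 counts in any of the 24 libraries and was not tested.

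The genes that switch off MAP kinases and unstable messages rose as well. Of 17 tested phosphatases and ERK feedback inhibitors, 11 (64.7%) were higher, against 9.9% of all genes. Their median log2 fold change was 0.607. Dusp2, a phosphatase of ERK in immune cells, rose from 27.3, 24.2 and 25.8 CPM to 77.6, 76.1 and 70.0 CPM. Dusp1 and Dusp8 had fold changes of 3.28 and 3.53, but both share exon positions with other genes and are uncertain. Dusp6, a reader of ERK activity in many cells, did not follow. Its levels were 9.34, 9.75 and 11.6 CPM in control and 7.47, 9.16 and 6.74 CPM with (GT)6 SWCNT, and the call as lower (−0.38) was lost without control replicate 3, (GT)6 replicate 1 or (GT)6 replicate 3. Of 16 mRNA decay regulators, all tested, 10 (62.5%) were higher and 1 (6.25%) lower, against 9.9% and 10.5% of all genes. Zfp36, tristetraprolin, which binds AU-rich elements of cytokine messages, rose from 54.5, 60.7 and 55.6 CPM to 145, 157 and 151 CPM. Its relative Zfp36l2 was lower, at 77.5, 83.4 and 83.9 CPM in control and 54.1, 61.1 and 53.4 CPM with (GT)6 SWCNT; both share exon positions with another annotated gene. Zc3h12c, a regnase family member, rose by 0.79 on the log2 scale.

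**Figure D4:**
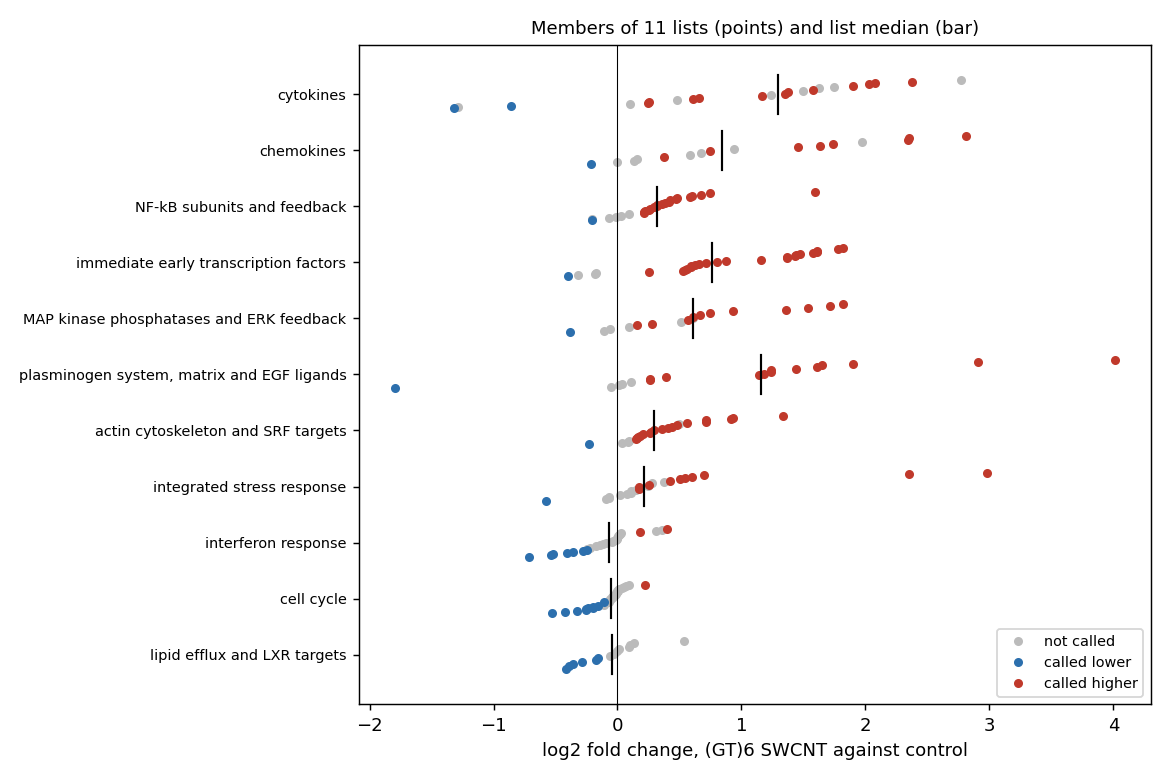
Points are the tested members of 11 gene lists, placed by log2 fold change in (GT)6 SWCNT against control and coloured by call (red higher, blue lower, grey not called); vertical bars are list medians. The medians of cytokines (1.295) and of the plasminogen, matrix and EGF ligand list (1.16) are the furthest to the right, while the medians of the interferon (−0.066) and cell cycle (−0.053) lists lie just under 0. Values of cytokines and chemokines at the floor of detection in both groups are drawn at their fitted position.

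Proteases of the cell surface and their partners formed a further group. Of 22 genes of the plasminogen system, matrix and EGF ligands, 18 were tested and 13 (72.2%) were higher, against 9.9% of all genes. At least a doubling was seen for 10 of these, and the median log2 fold change of the list was 1.16. Plat, tissue plasminogen activator, was nearly silent in control, with 1, 5 and 4 counts, and had 90, 55 and 35 counts with (GT)6 SWCNT. The rise was seen in every library, and its log2 fold change of 4.01 ± 0.44 was the largest of the list (adjusted p = 3.48e-09). Mmp14, a membrane-anchored collagenase, went from 2, 4 and 2 counts to 28, 26 and 13 counts. Mmp12, the macrophage elastase, had a fold change of 3.73, which is uncertain because it overlaps Mmp1b. Plau and Plaur encode urokinase and its receptor, and were named here after their values were seen. Plau was abundant and rose from 513, 479.5 and 449 CPM to 1337, 1315 and 1271 CPM. Plaur rose from 65.3, 65.5 and 64.7 CPM to 157, 149 and 136 CPM. Both genes separated by group, with fold changes of 2.72 and 2.27. Thbs1 was the 1 member called lower (−1.79), at under 1 CPM in each library; it shares exon positions with another gene and was not tested under a filter of a mean of at least 50 counts. Mmp9 and Timp2 were not called, at 0.01 and −0.05. Pdgfb, a growth factor outside these lists and 1 of the 12 highest, rose from 98.9, 106 and 99.6 CPM to 451, 444 and 412 CPM.

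Actin genes and targets of serum response factor (SRF) rose by smaller amounts. Of 29 listed 23 were tested, and 18 (78.3%) were higher and 1 (4.35%) lower, against 9.9% and 10.5% of all genes. The median log2 fold change was 0.295. Rhob, a small GTPase of endosomes and stress fibres, rose from 46.6, 48.3 and 45.7 CPM to 122, 115 and 119 CPM. Zyx and Vcl, which anchor actin at focal adhesions, had log2 fold changes of 0.93 ± 0.05 and 0.92 ± 0.04 (SE) and share exon positions with other genes. Srf itself, named after its values were seen, rose from 106, 108 and 106 CPM to 182, 178 and 163 CPM. Its coactivator Mrtfa was the member called lower, at 84.5, 92.4 and 90.6 CPM in control and 77.6, 76.4 and 74 CPM with (GT)6 SWCNT. Arpc1b and Tpm3 were not called, and Tpm3 passed the threshold under 6 of the 13 alternatives.

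Stress programmes were uneven. Of 22 tested genes of the integrated stress response, 10 (45.5%) were higher and 1 (4.55%) lower, against 9.9% and 10.5% of all genes. Gdf15 (ENSMUSG00000038508.7, chr8:70629393-70632456, minus strand), a stress-induced hormone of the TGF-beta superfamily, rose from 4.23, 3.36 and 4.38 CPM to 34, 33.2 and 25.4 CPM. It had the highest fold change (7.88) of the named genes above 5 CPM. Chac1, which degrades glutathione, rose from 0.769, 0.979 and 0.748 CPM to 5.54, 4.17 and 3.05 CPM. Sesn2 rose by 0.70, whereas Ddit4, an inhibitor of mTORC1, fell from 15.5, 14.9 and 18.3 CPM to 12.7, 11.5 and 7.68 CPM. The amino acid synthesis genes Phgdh and Psat1 were not called, at −0.09 and −0.07, and Phgdh was called lower with upper-quartile factors. Of 20 endoplasmic reticulum chaperone and unfolded protein response genes 5 (25%) were higher, or 3 without (GT)6 replicate 1 or 2. Herpud1 led them, from 29.1, 31 and 29.8 CPM to 57.4, 54.2 and 47 CPM. Of 21 tested p53 targets 9 (42.9%) were higher and 3 (14.3%) lower. The 3 highest were Gdf15, Btg2 and the kinase gene Plk2 (1.37), and 5 of the 9 higher members (Gdf15, Btg2, Sesn2, Pmaip1 and Bbc3) also stand in other lists. Sesn1, 1 of the 12 lowest genes, was the lowest p53 target called, at −0.96 on the log2 scale. It had 19.5, 19.7 and 18 CPM in control and 9.2, 9.89 and 10.5 CPM with (GT)6 SWCNT. Trp53inp1 had a lower fold change, −1.40 on the log2 scale, but was not called.

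Of 23 targets of NRF2 and metallothioneins, 3 (13%) were higher and 2 (8.7%) lower, near the 9.9% and 10.5% of all genes. Hmox1, heme oxygenase 1, had 322, 299 and 297 CPM in control and 314, 301 and 292 CPM with (GT)6 SWCNT. These ranges overlapped and the log2 fold change was −0.02 ± 0.06. Gclc, the catalytic subunit for glutathione synthesis, fell from 117, 120.4 and 115 CPM to 87.3, 84.4 and 93.2 CPM, and Slc7a11, the cystine transporter, rose from 30.2, 27.4 and 26.4 CPM to 41, 40.6 and 37 CPM. Of 17 tested cytosolic heat shock genes Dnajb4 was called higher (0.45), and 0 lower by edgeR or DESeq2 (2 at an unadjusted p under 0.05). Bag3 also passed the threshold, making 2 higher, without (GT)6 replicate 1 or (GT)6 replicate 3 and with DESeq2 size factors.

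Genes of cell death and survival included higher and lower members. In the BCL2 family and caspase list 11 of 24 tested (45.8%) were higher and 4 (16.7%) lower, against 9.9% and 10.5% of all genes. Bmf, a BH3-only activator of apoptosis, showed the largest fall of any named gene, from 3.9, 4.51 and 4.38 CPM to 0.78, 1.25 and 0.937 CPM. No nanotube library reached the lowest control, and the log2 fold change was −2.11 ± 0.22 (SE, adjusted p = 8.63e-10). Cflar, the caspase 8 inhibitor c-FLIP, rose from 80.2, 74 and 77.5 CPM to 125, 125 and 122 CPM. Mcl1, an abundant survival gene named after its values were seen, rose from 463, 456 and 455 CPM to 652, 647 and 649 CPM. Bik, a BH3-only gene near 1 CPM, was called higher, and this call was lost without control replicate 2 or (GT)6 replicate 2. The lower count was 2 without control replicate 2, control replicate 3, (GT)6 replicate 1 or (GT)6 replicate 2. Bcl2a1a, Bcl2a1b and Bcl2a1d are near-identical copies and their split is uncertain.

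Receptors for microbial products and for chemoattractants changed in both directions. Of 23 Toll-like receptor and adaptor genes, 5 (21.7%) were lower and 4 (17.4%) higher, against 10.5% and 9.9% of all genes. The 5 lower ones were all receptors. Tlr8, a sensor of RNA, was scarce, with 15, 11 and 15 counts in control and 5, 3 and 3 counts with (GT)6 SWCNT, at a log2 fold change of −1.97 ± 0.53. Tlr5, the flagellin receptor, fell from 8.19, 9.83 and 10.4 CPM to 5.3, 4.94 and 6.62 CPM. Tlr9, the endosomal sensor of unmethylated CpG DNA, had 17.7, 22.3 and 20.9 CPM in control and 17.1, 16.9 and 15.6 CPM with (GT)6 SWCNT. Its 3 nanotube values lay just under the lowest control value, and the call (−0.30, adjusted p = 0.015) was lost without control replicate 2, control replicate 3 or (GT)6 replicate 3. Tlr4, the LPS receptor, named here after its values were seen, fell from 42.6, 40.6 and 41.9 CPM to 30.4, 30.1 and 30.8 CPM. Higher genes of the list included Ticam1, the adaptor TRIF, which rose from 15.9, 18.2 and 21.2 CPM to 39.1, 36.4 and 33 CPM, Irak2 from 56.9, 56.8 and 56.3 CPM to 91, 94.7 and 86.4 CPM, and Cd14, which hands LPS to Tlr4, from 308, 289 and 288 CPM to 422, 414 and 435 CPM. The adaptor gene Ticam2 was at −0.47 on the log2 scale, not called (adjusted p = 0.05) but called lower under 6 of the 13 alternatives.

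In the list of chemoattractant and purinergic receptors and RGS proteins, 9 of 24 tested (37.5%) were higher and 6 (25%) lower. Over all genes the shares were 9.9% and 10.5%. C5ar1, the receptor of complement C5a, rose from 60.7, 60.6 and 60.2 CPM to 137, 135 and 127 CPM. Ccrl2, a receptor that binds chemerin, rose from 3.9, 4.17 and 5.02 CPM to 11.9, 11.5 and 10.8 CPM. Rgs16, which ends signals of such receptors, rose from 2, 5 and 2 counts to 20, 25 and 16 counts and overlaps another gene. Cnr2, the cannabinoid receptor of immune cells, fell from 17.7, 18.8 and 19 CPM to 10.9, 10.3 and 10.7 CPM, with a log2 fold change of −0.80 ± 0.07 (adjusted p = 2.41e-11). The lysophospholipid receptors of the 12 lowest also fell: S1pr1 from 15.2, 16.4 and 15.5 CPM to 8.17, 8.56 and 9.14 CPM and Lpar5 from 12.5, 10.7 and 12.9 CPM to 6.45, 6.62 and 6.68 CPM. No library of 1 group reached into the range of the other for these receptors. The rule for the 12 lowest required this of S1pr1 and Lpar5.

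Among inflammasome and cytosolic DNA sensing genes 4 of 20 tested (20%) were higher and 5 (25%) lower, against 9.9% and 10.5% of all genes. Nlrp3 stood out, rising from 95, 99.7 and 92.5 CPM to 248, 243 and 242 CPM, a fold change of 2.55. Nlrc4, another inflammasome receptor, fell from 18.1, 18.1 and 19.8 CPM to 13.7, 13.7 and 16.1 CPM. The count of higher genes was 2 without (GT)6 replicate 1, and that of lower genes 3, 2, 3 and 3 without control replicate 2, control replicate 3, (GT)6 replicate 1 and (GT)6 replicate 2. Scavenger receptors and phagocytosis genes, 27 in all, had 6 (22.2%) higher and 3 (11.1%) lower, against 9.9% and 10.5% of all genes. Their lower count was 1 without control replicate 2 or (GT)6 replicate 2. Msr1, a class A scavenger receptor, had 10.6, 9.62 and 10.1 CPM in control and 9.2, 7.52 and 9.14 CPM with (GT)6 SWCNT and was not called. Olr1, an oxidised LDL receptor, had 1, 0 and 2 counts in the controls and 6, 12 and 13 with (GT)6 SWCNT. Taking the control at 3 counts per library, it was at least 3.37-fold higher. Cd93 rose from 80.3, 81.2 and 80.8 CPM to 112, 109 and 111 CPM.

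Of 26 tested interferon response genes 2 (7.69%) were higher and 7 (26.9%) lower, against 9.9% and 10.5% of all genes, with a median log2 fold change of −0.066. Stat2, a subunit of the interferon-stimulated factor ISGF3, fell from 9.01, 10.3 and 11.7 CPM to 5.75, 6.62 and 6.74 CPM. Usp18, which restrains the interferon receptor, fell from 8.74, 8.64 and 9.77 CPM to 6.0, 6.36 and 6.56 CPM, and Irf9, the DNA-binding subunit of ISGF3, was lower by 0.54 on the log2 scale, a call lost without control replicate 1 and uncertain because Irf9 overlaps Rnf31. Rsad2, viperin, was called higher at 0.40, and lost that call without control replicate 2, control replicate 3, (GT)6 replicate 2 or (GT)6 replicate 3. Without control replicate 2 the count of lower genes was 3. The count of higher genes was 0 without (GT)6 replicate 2 and 1 without each of the other libraries.

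Lipid genes differed by list. In the list of cholesterol synthesis and uptake 9 of 23 tested (39.1%) were higher and 1 (4.35%) lower, against 9.9% and 10.5% of all genes. The lower count was 0 without any 1 of the libraries other than (GT)6 replicate 3. The changes were small, with Insig2, which restrains the pathway, at 24.2, 22.4 and 21 CPM in control and 27.9, 29.3 and 27.4 CPM with (GT)6 SWCNT. The groups did not overlap. In the list of lipid efflux and LXR targets 6 of 14 tested were lower (3 without control replicate 3) and 0 higher by edgeR or DESeq2, with 1 higher at an unadjusted p under 0.05. The fit of the 2 groups alone called 1 higher. Abcg1, an exporter of cholesterol, fell from 38.5, 44.2 and 39.8 CPM to 32.4, 29.4 and 30.2 CPM, and Acsl3, a fatty acid activating enzyme, from 44.6, 44.7 and 44.9 CPM to 32.6, 34.7 and 34.9 CPM. Abca1, the other main exporter and named after its values were seen, had overlapping values of 33.4, 33.9 and 34.5 CPM and 30.1, 33.8 and 36.2 CPM.

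Cell cycle genes also had more members lower than higher. Of 34 genes, all tested, 10 (29.4%) were lower and 1 (2.94%, Cdk6) higher, against 10.5% and 9.9% of all genes. The median log2 fold change was −0.053. Among those that fell were cyclins and E2F factors of the entry into S phase. E2f2, an E2F transcription factor, went from 45.1, 45.2 and 47.9 CPM to 34.8, 33.5 and 34.5 CPM and Ccnd1, cyclin D1, from 184, 189.6 and 182 CPM to 147, 154 and 142 CPM, although Ccnd1 shares exon positions with another gene. Cdkn1b, the inhibitor p27 that holds cells in quiescence, fell too, from 18.8, 20.0 and 21.9 CPM to 14.3, 13.9 and 13.9 CPM. The count of higher members was 2 without control replicate 1, control replicate 2 or (GT)6 replicate 3, and with 4 other settings, and Mcm4 passed the threshold in these.

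Of 25 tested autophagy genes 3 (12%) were higher and 4 (16%) lower, against 9.9% and 10.5% of all genes (2 lower without control replicate 3 or (GT)6 replicate 1). Rubcnl (ENSMUSG00000034959.8, chr14:75016027-75052532, plus strand) was the lowest of all genes that met the rule for the 12 lowest. It had 9.18, 10.5 and 10.2 CPM in control and 4.56, 4.77 and 4.28 CPM with (GT)6 SWCNT, less than 60% of any control value in every nanotube library. Its relative Rubcn, which inhibits autophagosome maturation, fell from 29.3, 30.7 and 30.1 CPM to 24.1, 24.7 and 26.2 CPM, and Atg13, a subunit of the initiating kinase complex, rose from 181, 174 and 174 CPM to 231, 222 and 216 CPM. Of 31 lysosome and v-ATPase genes 5 (16.1%) were higher and 1 (3.23%) lower, against the same shares of all genes. The higher count was 3 without (GT)6 replicate 1 and 8 without (GT)6 replicate 3. Tfe3, a transcription factor of lysosomal genes, was the highest (0.27). Its relative Tfeb was the 1 lower (−0.36), a call lost without control replicate 3 or (GT)6 replicate 3.

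In the glycolysis and HIF-1 list 5 of 29 tested (17.2%) were higher and 3 (10.3%) lower, against 9.9% and 10.5% of all genes. The higher count was 9 without (GT)6 replicate 3. The lower count was 1 without control replicate 1, control replicate 2 or (GT)6 replicate 3. Slc2a1, the glucose transporter GLUT1, rose from 208, 201 and 205 CPM to 359.9, 356 and 344 CPM but overlaps another gene, and Pfkfb3, which drives glycolytic flux, rose from 27.7, 26.3 and 27.3 CPM to 39.7, 39.4 and 38 CPM. Against control, 0 of 80 tested cytosolic ribosomal protein genes were higher in edgeR's quasi-likelihood test (2 at an unadjusted p under 0.05) and 4 lower. The DESeq2 test called 1 higher and 0 lower, the fit of the 2 groups alone called 4 higher, and the lower count was also 0 without control replicates 1 or 3 or (GT)6 replicates 1 or 2. Of 87 nuclear genes for respiratory chain subunits 0 were higher in edgeR's fit of all groups or by DESeq2 (1 at an unadjusted p under 0.05) and 2 lower. The fit of the 2 groups alone called 1 higher and 9 lower, upper-quartile factors gave 4 lower, no low-count filter 8, and DESeq2 as test or as size factors 1. There were 0 to 4 lower when 1 library was left out (4 without control replicate 2, 0 without control replicates 1 or 3 or (GT)6 replicates 1 or 2). Ppargc1b, the coactivator PGC-1beta and 1 of the 12 lowest, fell from 17.4, 20.7 and 20.3 CPM to 9.65, 10.5 and 11.4 CPM.

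Genes of TGF-beta signalling also included higher and lower members. Of 17 tested 4 (23.5%) were higher and 3 (17.6%) lower, against 9.9% and 10.5% of all genes. Id3, a dominant negative helix-loop-helix factor, rose from 6.76, 5.36 and 5.66 CPM to 16.9, 17.8 and 17.2 CPM and Id2 from 27.3, 24.3 and 26.2 CPM to 51.7, 54.5 and 44.3 CPM. Smad3, a transducer of TGF-beta, fell from 34.2, 37.4 and 32.8 CPM to 24.3, 27.3 and 25.1 CPM. Among the 22 tested microglia and macrophage markers 6 (27.3%) were higher and 6 (27.3%) lower. Tmem119 and C1qa were called lower near the threshold (adjusted p = 0.0466 and 0.0372) and lost their calls under 9 and 5 of the 13 alternatives. The lower count was 2 without control replicate 2, control replicate 3, (GT)6 replicate 1 or (GT)6 replicate 2, and 3 with the replicate number as a block, and the higher count was 3 without (GT)6 replicate 2.

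Direct contrasts placed the response against the other nanotube and against LPS. They share the (GT)6 SWCNT libraries with the comparison above, so genes chosen there as high with (GT)6 are not independent here. Against COOH SWCNT, 1557 genes were higher with (GT)6 SWCNT (11.9% of those tested) and 1244 lower (9.48%). The lower count was 787 without (GT)6 replicate 1 and 740 without COOH SWCNT replicate 1. With upper-quartile factors the split was 1283 higher and 1604 lower. Of the 165 genes at least doubled over control, 107 were also higher than with COOH SWCNT and 0 lower, by edgeR or DESeq2 or at an unadjusted p under 0.05. Cxcl2 had 35.7, 36.9 and 35.5 CPM with COOH SWCNT, between the control and the (GT)6 levels given above, and the log2 difference was 1.33 ± 0.07 (SE, adjusted p = 3.01e-16). Il1rn had 1259, 1346 and 1326 CPM and Plau 886, 899 and 908 CPM with COOH SWCNT, again between those levels. Egr3, at 99.5, 97.6 and 83.3 CPM, was closer to its (GT)6 level, and the log2 difference was 0.27 ± 0.06. Tnfaip3 was not called between the nanotubes, with 38.1 ± 2.67 CPM (SD, n = 3) against 37.6 ± 0.268, a log2 difference of −0.02 ± 0.06 (SE). The concentrations of the nanotubes are not given in the labels used here, so that equal exposure cannot be assumed.

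The groups of genes differed from COOH SWCNT to different degrees. Higher with (GT)6 SWCNT than with COOH SWCNT were 16 of 26 tested immediate early genes, 9 of 16 chemokines, 10 of 18 plasminogen system genes, 13 of 23 actin genes, 8 of 22 cytokines and 6 of 25 NF-kB genes. Over all genes the share was 11.9%. Lower were 2 immediate early, 2 NF-kB, 1 actin and 1 cytokine gene, against 9.48% of all genes. By edgeR or DESeq2 0 chemokines and 0 plasminogen system genes were lower, with 1 of each at an unadjusted p under 0.05. The NF-kB median log2 difference was −0.001. Cytosolic ribosomal protein genes, which encode the ribosome, had the highest share of these lists: 73 of 80 tested were higher with (GT)6 SWCNT than with COOH SWCNT, with a median log2 difference of 0.266. By edgeR or DESeq2, or at an unadjusted p under 0.05, 0 were lower. The number was 70 to 77 over the other scalings, filters and tests and 62 to 74 when 1 library was left out. For nuclear respiratory chain subunits it was 47 of 87, median 0.173, and again 0 lower by each of these measures. The median log2 difference of COOH SWCNT against control was −0.284 for the ribosomal and −0.196 for the respiratory chain genes.

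Against LPS, 1263 genes were higher with (GT)6 SWCNT (9.63%) and 1566 lower (11.9%), and with upper-quartile factors 1695 were higher and 1251 lower. Of the 165 genes at least doubled over control, 61 were lower than with LPS, 50 higher and 54 not called. Several inflammatory genes were far below their LPS levels. Tnf had 1082, 1174 and 1176 CPM with LPS, over 10 times its level with (GT)6 SWCNT, and the log2 difference was −3.63 ± 0.05 (SE). Cxcl2 had 1079, 1222 and 1223 CPM and Ptgs2 1189.8, 1192 and 1246 CPM with LPS, with log2 differences of −3.70 and −3.18. Of 25 NF-kB genes 22 were lower with (GT)6 SWCNT than with LPS and 0 higher by edgeR or DESeq2 (1 at an unadjusted p under 0.05), and of 22 tested cytokines 16 were lower.

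Other genes were higher with (GT)6 SWCNT than with LPS. Il1rn had 1421, 1432 and 1545 CPM with LPS, less than any (GT)6 SWCNT library, at a log2 difference of 0.74 ± 0.08 (adjusted p = 4.37e-10). Pdgfb had 368, 381 and 367 CPM with LPS, also less than any (GT)6 SWCNT library. Plau, the urokinase gene, had 494, 486 and 473 CPM with LPS and Egr3 35.6, 33.7 and 38.4 CPM, values near those of the controls. Their log2 differences from (GT)6 SWCNT were 1.43 ± 0.05 and 1.65 ± 0.07. Vcl and Zyx had 102 and 141 CPM on average with LPS against 189 and 250.3 with (GT)6 SWCNT. Of 23 tested actin genes 15 were higher and 3 lower with (GT)6 SWCNT than with LPS, against 9.63% and 11.9% of all genes. Among the lower genes, Rubcnl was lower still with LPS, at 2.28, 1.76 and 1.87 CPM, as was Cnr2, at 3.15, 3.37 and 2.9 CPM. Sesn1 and Fam53b were not called against LPS, with log2 differences of 0.01 ± 0.09 and 0.01 ± 0.08. Bmf was lower with (GT)6 SWCNT than with LPS, by 1.0 on the log2 scale (adjusted p = 0.00272).

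**Figure D5:**
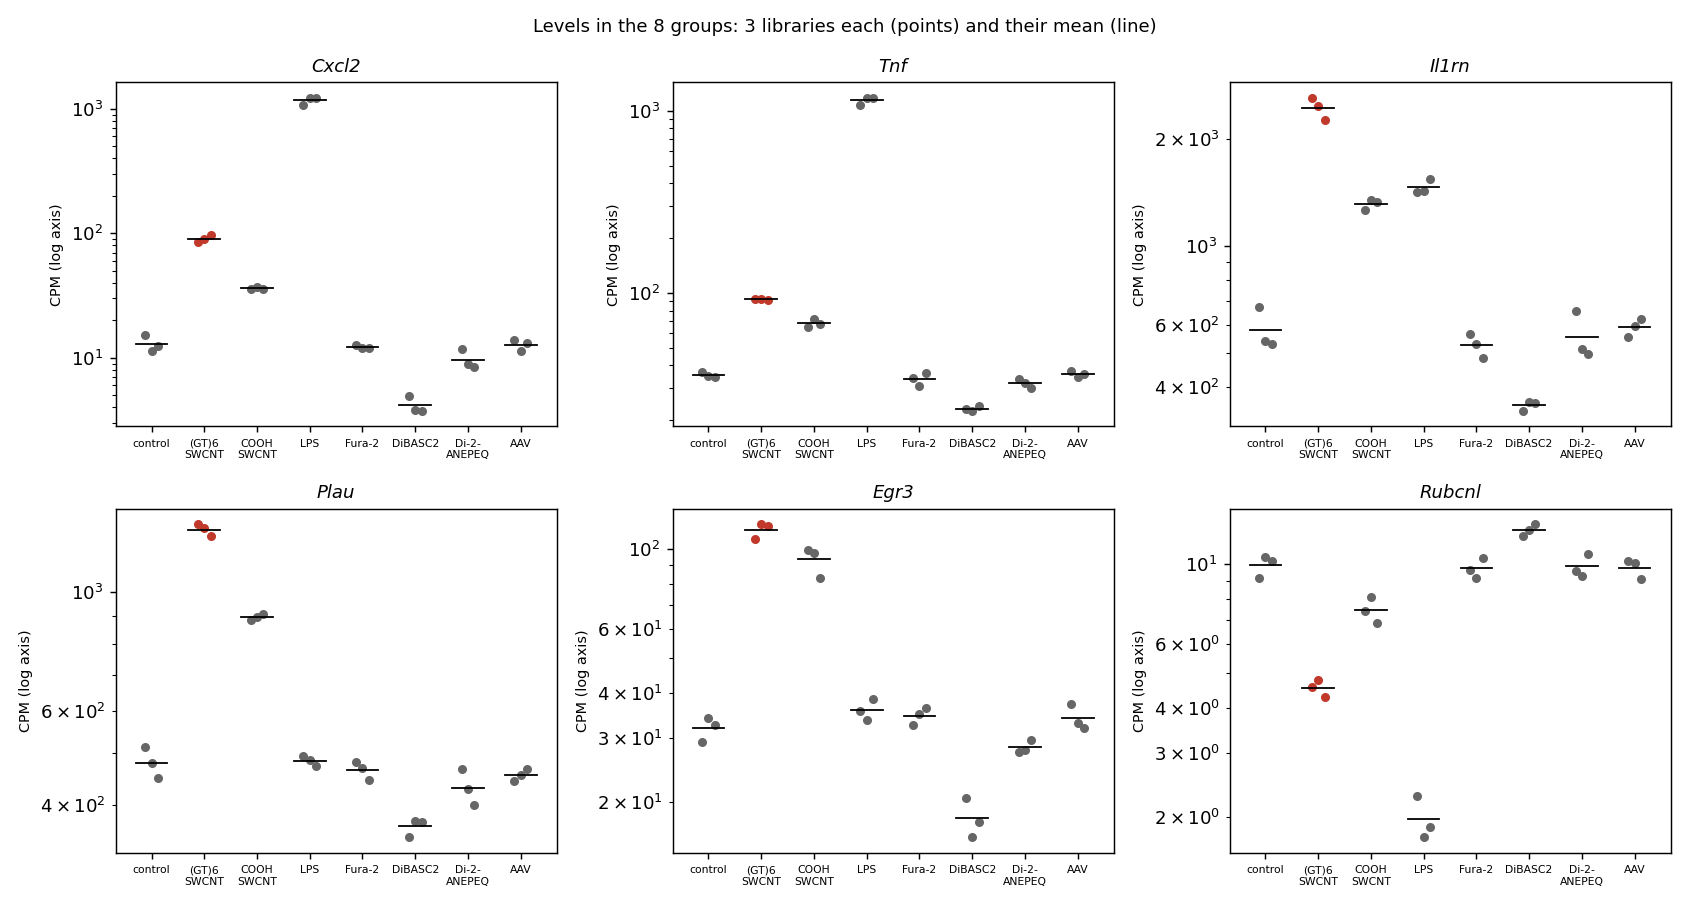
For 6 genes the level in all 8 groups is drawn (CPM, log axes with a different range in each panel), with 3 libraries per group as points, their mean as a line and (GT)6 SWCNT in red. LPS is the highest group for Cxcl2 and Tnf and the lowest for Rubcnl, (GT)6 SWCNT is the highest for Il1rn, Plau and Egr3, and COOH SWCNT lies between control and (GT)6 SWCNT in all 6 panels.

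The remaining groups, which had the same addition of 30 uL, give a further background. Cxcl2 averaged 12.2 ± 0.449 CPM with Fura-2, 12.8 ± 1.27 with AAV, 9.65 ± 1.76 with Di-2-ANEPEQ and 4.18 ± 0.663 with DiBASC2 (SD, n = 3 each), against 13 ± 1.97 in control. Egr3 averaged 34.6 ± 1.84 CPM with Fura-2, 34.1 ± 2.74 with AAV, 28.3 ± 1.17 with Di-2-ANEPEQ and 18 ± 2.32 with DiBASC2, against 32 ± 2.42 in control. No library of these 4 groups reached the level of any (GT)6 SWCNT library for either gene. The numbers that end the library names run in blocks of 3 per group, so that an effect of whatever order they record and the effect of a treatment cannot be told apart.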

How the data were processed

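Poly-A RNA of SIM-A9 cells was sequenced in 24 libraries, 3 in each of 8 groups. The authors deposited raw counts per gene for every library. Per the submitters' processing notes, STAR 2.5.4b and GRCm38.p6 were used; the counter, its strand setting and the annotation release are not given in the sources used here. Without a known strand setting, reads of overlapping genes cannot be told apart. Symbols and positions came from GENCODE (GRCm38), which matched 54809 of 54838 identifiers.

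Genes were filtered with filterByExpr, scaled by TMM and fitted in edgeR 4.0.16 (R 4.3.3) with a mean for each of the 8 groups and 16 residual degrees of freedom. Each contrast used the two-sided quasi-likelihood test with Benjamini-Hochberg adjustment over the 13116 genes, called at 0.05. Levels are CPM with TMM scaling. A standard error is the log2 fold change divided by the square root of F. The script was tested on simulated data. A group with at most 3 counts in each library was marked as at the floor, and bounds on fold changes took it at 3 counts. Reads carry no molecular identifiers.

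The members and lists were chosen with earlier results of these data known. Named genes were the 12 highest and 12 lowest called protein-coding genes (at least 5 CPM, no shared exon, no overlap of libraries), the 3 highest and 3 lowest tested members of each list, and 12 genes fixed by name; genes outside the rule are marked. Alternatives were DESeq2 1.42.0 as test or size factors, upper-quartile factors, no filter or a mean of 50 counts, a fit of 2 groups, a replicate block and leaving out each library. Promoter sequences are from RefSeq (GRCm38.p6). Some results are not reported here.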

Additional observations from a re-analysis of the deposited data

How the results depend on the processing

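No named gene that was called changed direction under any alternative run. Of the 2680 called genes, 86.7% to 96.9% were called in the same direction under other scalings, filters, tests and fits, with 0 called in the opposite one. Leaving out 1 library kept 71.3% to 85.9%. The count of higher genes against control was 1097 to 1395 when 1 library was left out and that of lower genes 849 to 1181. Against COOH SWCNT the lower count was 740 to 1055. The causes were not tested, although these fits have fewer samples. The DESeq2 test called 2577 genes against control (1401 higher, 1176 lower), DESeq2 size factors 2635, upper-quartile factors 2752, no filter 2429, a mean of at least 50 counts 2675 and the fit of the 2 groups alone 2820. With the replicate number as a block 2631 were called (1277 higher, 1354 lower). Deviations of control and (GT)6 libraries from their group means correlated at −0.065 to 0.055, so the numbers were not taken to pair the samples. Of the other 183 genes named by the rule, 40 changed their call under at least 1 alternative. Genes with few counts, such as Il6, Plat and Olr1, are limited by depth.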

Other observations

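Genes known as targets of FOXO transcription factors, which keep cells in quiescence and are held outside the nucleus by AKT, were listed after values had been seen, so that their counts are a description. Of 30 listed 27 were tested, 13 (48.1%) were lower and 5 (18.5%) higher, against 10.5% and 9.9% of all genes. The median log2 fold change was −0.32, against −0.0171 over all genes. Fbxo32, a ubiquitin ligase subunit of muscle atrophy, fell from 3.19, 3.36 and 4.06 CPM to 1.23, 1.12 and 1.58 CPM and shares exon positions with another gene. Arrdc3, an arrestin-domain protein, fell from 5.06, 3.87 and 4.65 CPM to 1.44, 1.59 and 2.4 CPM. Pik3ip1, an inhibitor of PI3 kinase, fell from 6.04, 6.13 and 7.0 CPM to 3.33, 2.19 and 2.99 CPM and also overlaps another gene. With Bmf, these were the 4 members at least halved. Foxo1 itself was lower, at 15.4, 15.9 and 16.1 CPM in control and 11.6, 10.8 and 10.7 CPM with (GT)6 SWCNT. Against COOH SWCNT 14 members were lower and 2 higher, where 9.48% and 11.9% of all genes were. Against LPS 8 were lower and 5 higher, where 11.9% and 9.63% of all genes were. The median log2 fold change of LPS against control was −0.376 for the list, and that of COOH SWCNT against control was 0.038.

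Zinc finger genes named Zfp, Zbtb, Zkscan or Zscan, also listed after values had been seen, numbered 465. Of 367 tested 79 (21.5%) were lower and 18 (4.9%) higher, against 10.5% and 9.9% of all genes. The lower count was 52 without control replicate 3, and the median log2 fold change was −0.134. Zfp467 and Zfp971, both among the 12 lowest genes, fell from 10.3, 11.2 and 12 CPM to 5.91, 5.67 and 5.92 CPM and from 10.4, 10.2 and 10.3 CPM to 6.08, 5.03 and 5.16 CPM.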
